A study of Mus musculus with 6 samples.

Results

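The 31 genes described here encode proteins of cell-to-cell junctions and of cell polarity in mouse lung endothelial cells, and all 31 were measured among 19938 genes tested. They were chosen by name, from tight, adherens and gap junctions, cadherins and the polarity complex. Each gene was read from the only probe set annotated with its symbol alone. RNA came from 6 cultures of lung endothelial cells (lECs) on the C57BL/6 strain background, grown to confluence. In the control group, 3 cultures carried the empty pcDNA3.1/Hygro(-) vector, and in the L1CAM group, 3 cultures carried the same vector with full-length mouse L1CAM, so stable transfection with the hygromycin vector was common to all 6. L1CAM is a membrane-spanning adhesion protein with immunoglobulin domains, studied mostly in neurons. The labels call the cultures biological replicates but do not say whether each group was a pool or a clone of transfected cells, so the p-values measure the spread between cultures and may leave out that between transfections.

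Endothelial cells are held together by several junctions. Tight junctions seal the space between cells through claudins, occludin and the scaffold ZO-1. Adherens junctions join neighbouring cells through cadherins and catenins and through the immunoglobulin-type nectins, which bind afadin. Gap junctions are channels built from connexins, and the PAR proteins place junctions and set the apical and basal sides of the cell.

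Each value is log2 expression of a probe set on an array. A difference is the L1CAM mean minus the control mean on that scale, with limma's moderated standard error (SE). The transfected gene was read first: L1cam measured 6.50, 6.77 and 7.31 in the control arrays and 10.49, 10.60 and 10.73 in the L1CAM arrays. The endothelial markers Cdh5, Pecam1, Kdr, Tie1 and Emcn lay between 12.4 and 13.1 on all arrays, while Vwf, at 6.82 to 6.88, lay just above the array medians of 6.55 to 6.58. Of 15 endothelial markers, Robo4 was called higher and Mmrn2 and Cldn5 lower (20.0% called, against 15.0% of all genes). Only 3 of the 15 differences were positive, and in 11 the groups did not overlap (73.3%, against 34.6% of all genes). Their median absolute difference was 0.08, against 0.10 for all genes. Genes that exceeded their array's median in 3 or more arrays numbered 3 of 11 for leukocytes and 2 of 12 for epithelium. They numbered 5 of 12 for mural cells or fibroblasts and 3 of 6 for lymphatic endothelium. Among them, Cd68 of the leukocyte list read 12.0 to 12.4 and Lyve1 of the lymphatic list 11.5 to 12.3. In limma no gene of those 4 lists was called, and 1 epithelial and 1 mural or fibroblast gene had an unadjusted p under 0.05. L1CAM replicate 1 stood apart from the other L1CAM arrays, correlating with them at 0.995 across genes, against 0.999 between replicates 2 and 3. With the control arrays it correlated at 0.993 to 0.995, about as closely as with its own group. Replicates 2 and 3 correlated with the control arrays at 0.988 to 0.990. By this measure replicate 1 lay between the groups, which limits each comparison of 3 against 3 arrays.

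As RNA was taken from whole cultures, a change in the share of cells that express a gene and a change in RNA per cell cannot be told apart. Of the 31 genes, 7 were higher and 6 lower in L1CAM cells at an adjusted p under 0.05. Over all genes tested, 6.85% were called higher and 8.19% lower, 15.0% together. Because the genes were picked with earlier results of these data known, their larger share of 41.9% is a description and not evidence about junctions. Of the 31, 26 exceeded their array's median in 3 or more arrays, as did 11409 of all 19938 genes. In a fit limited to those 11409 genes, 30.0% were called, so 15.0% is a low yardstick for the 31. The rises among the 31 were Cldn1, Gja1, Cldn12, Pard3, Cdh2, Gjc1 and Afdn, and the falls Jam2, Cldn15, Nectin2, Ocln, Nectin3 and Cldn5. The median difference was 0.03, close to the 0.02 of all genes, while the median absolute difference was 0.32 against 0.10 for all genes. In 21 of the 31 genes the L1CAM arrays lay wholly to one side of the control arrays, a separation seen in 34.6% of all genes. Of the 13 called genes, 7 were also called in each of the 6 fits that omitted 1 array: Cldn12, Cldn15, Ocln, Jam2, Nectin2, Pard3 and Gja1.

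**Figure D1:**
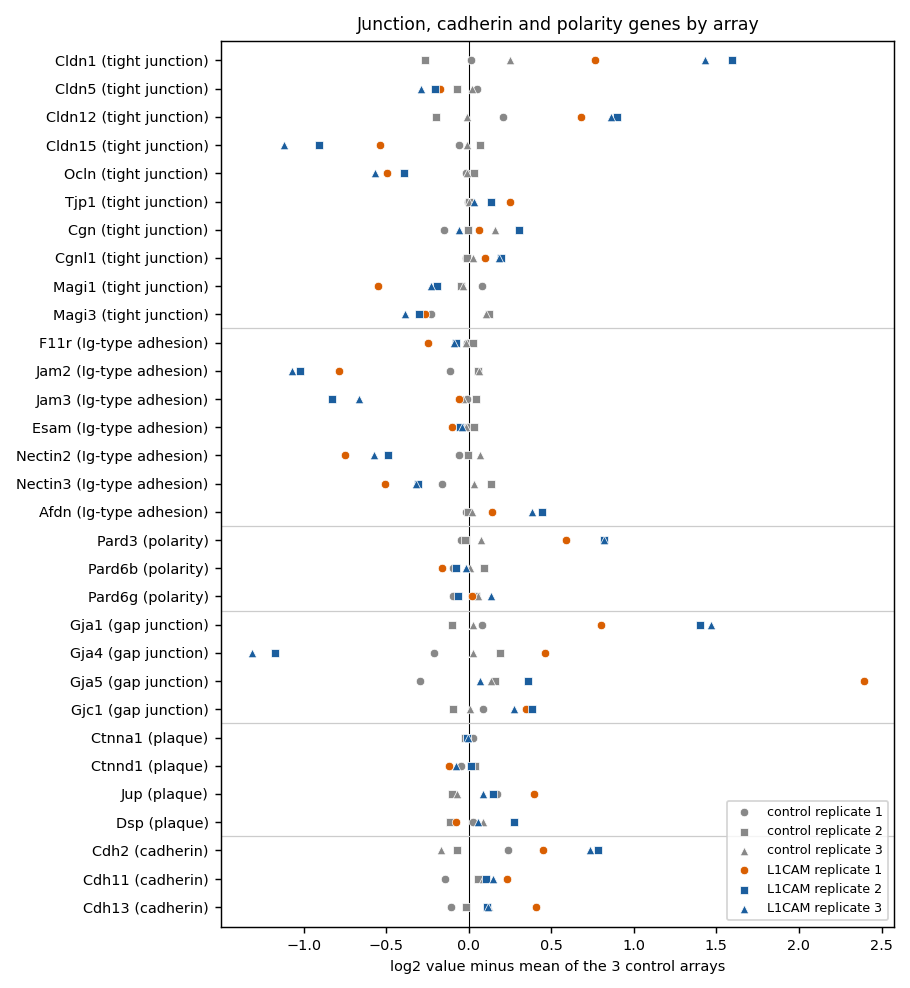
Log2 value of each of the 31 genes on each array, minus the mean of the 3 control arrays (horizontal axis), with genes grouped by role. Jam2, Cldn15 and Gja1 are clear of the control arrays on every L1CAM array, whereas Gja5 departs on L1CAM replicate 1, at 2.39.

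The claudins, the strands that set the permeability of tight junctions, moved in both directions. Of 10 tight junction genes, 2 rose and 3 fell, with a median difference of -0.06. Cldn1 read 4.79, 4.52 and 5.03 in control cells and 5.54, 6.38 and 6.21 in L1CAM cells. The groups did not overlap, and L1CAM replicate 1 was the lowest of its group. The rise of Cldn1 was 2.40-fold (difference 1.26, SE 0.22, adjusted p = 0.00993). Every one of these readings lay below the array medians, so Cldn1 was not shown to be above background in either group and its fold is not exact. Without control replicate 2 its difference was 1.13 (adjusted p = 0.0501).

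Cldn12, a claudin without the usual binding motif for PDZ scaffolds, read 8.56, 8.16 and 8.34 in control arrays and 9.03, 9.25 and 9.21 in L1CAM arrays. It rose 1.76-fold (difference 0.81, SE 0.11, adjusted p = 0.00389). Cldn15, which forms cation-selective pores in the intestine, read 9.23, 9.36 and 9.27 in control arrays and 8.75, 8.38 and 8.17 in L1CAM arrays. It was 1.81-fold lower in L1CAM cells (difference -0.85, SE 0.13, adjusted p = 0.00708). For both genes all L1CAM arrays lay outside the control range, with replicate 1 the nearest to it. Cldn5, the main claudin of endothelial cells, read 7.13, 7.01 and 7.11 in control cells and 6.91, 6.88 and 6.79 in L1CAM cells. These readings lay not far above the array medians of 6.55 to 6.58, so the size of the Cldn5 change is not exact. Its difference of -0.22 (SE 0.06, adjusted p = 0.0446) was called, but was no longer called when any array other than L1CAM replicate 1 was left out (adjusted p up to 0.154) or when array medians were set to 0 (adjusted p = 0.0636).

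Ocln encodes occludin, a membrane protein of the tight junction strand. It read 5.39, 5.44 and 5.40 in control cells and 4.91, 5.01 and 4.84 in L1CAM cells, groups that were narrow and apart. Ocln fell by 0.48 (SE 0.06, adjusted p = 0.00318), although all 6 readings were below the array medians and the size of the fall is not exact. Of the scaffolds that tie these proteins to actin, none of the 5 was called by limma, although 3 had an unadjusted 95% interval that left out 0. An unadjusted p under 0.05 was seen in 29.0% of all genes. Tjp1, which encodes ZO-1, differed by 0.14 (95% interval -0.02 to 0.29, adjusted p = 0.220). Cgnl1, encoding paracingulin, differed by 0.16 (0.03 to 0.29, adjusted p = 0.0912) and Cgn, encoding cingulin, by 0.10 (-0.16 to 0.36). Cgn read 6.80 to 7.25, not far above the array medians, so the size of its difference is not exact. The multi-PDZ scaffolds Magi1 and Magi3 lay lower in all L1CAM arrays than in all control arrays, with differences of -0.32 (adjusted p = 0.0684) and -0.32 (adjusted p = 0.0720). Without L1CAM replicate 1, Magi1 was called lower at -0.21 (adjusted p = 0.0441) and Cgnl1 higher at 0.19 (adjusted p = 0.0382). Without control replicate 1, Magi3 was called lower at -0.43 (adjusted p = 0.0149).

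The start regions of the leading rise and the leading fall with a RefSeq entry among the claudins are shown for context, from 250 bases before to 50 bases after the start, read 5′ to 3′ (GRCm38.p6). Of the 31 genes, 22 matched an entry, with 28 windows; Jam2, Jam3, Esam, Gjc1, Ctnna1, Pard6g, Cdh2, Cdh11 and Cdh13 did not. On chromosome 16, Cldn1 lies on the minus strand (chr16:26371790-26372089), and on chromosome 5, Cldn15 lies on the plus strand (chr5:136967619-136967918). Capitals mark matches, on either strand, to CAGGTG (an E-box bound by SNAIL and ZEB factors), TGANTCA (AP-1), GGGCGG (the GC box, CCGCCC on the other strand) and TTCNNNGAA (STAT), where N is any base. Positions give the first base of a match relative to the start, and no match overlapped one of another motif.
Cldn1: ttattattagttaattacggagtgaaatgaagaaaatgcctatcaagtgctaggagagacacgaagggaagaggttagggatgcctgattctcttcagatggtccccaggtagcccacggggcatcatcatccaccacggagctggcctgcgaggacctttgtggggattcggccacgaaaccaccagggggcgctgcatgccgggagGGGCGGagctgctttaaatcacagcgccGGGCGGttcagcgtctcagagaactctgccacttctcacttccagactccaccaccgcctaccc
Cldn15: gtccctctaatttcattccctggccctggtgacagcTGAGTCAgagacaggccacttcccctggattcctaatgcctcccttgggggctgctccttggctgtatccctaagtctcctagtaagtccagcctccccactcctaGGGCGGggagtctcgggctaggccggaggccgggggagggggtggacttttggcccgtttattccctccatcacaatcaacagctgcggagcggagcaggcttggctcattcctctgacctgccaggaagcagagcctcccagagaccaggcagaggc
The Cldn1 window held GC boxes at -42 and -14 from the start, and the Cldn15 window held an AP-1 match at -214 and a GC box at -108. A GC box was found in 22 of the 28 windows (78.6%), against 35.7% of 32851 windows in the whole table. CAGGTG was found in 8 of the 28 (28.6%, against 20.2% of all), TGANTCA in 3 (10.7%, against 7.81%) and TTCNNNGAA in 2 (7.14%, against 8.30%). Some of the 28 windows overlap, such as those of Cldn12 and of Ocln. The whole table, of 27025 genes, was not limited to genes measured or expressed here. These shares are therefore a description only, and the matches of letters show no binding.

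Among 7 genes of immunoglobulin-type junction adhesion, 3 fell and 1 rose (57.1% called, against 15.0% of all genes), and the median difference was -0.38. This share of chosen genes is likewise a description only. Jam2, a junctional adhesion molecule of endothelial cells, read 12.32, 12.49 and 12.50 in control arrays and 11.65, 11.41 and 11.37 in L1CAM arrays. The fall was present on each L1CAM array and exceeded the spread within both groups. Jam2 was 1.94-fold lower (difference -0.96, SE 0.09, adjusted p = 0.000934), and the difference ran from -1.05 to -0.90 over the fits that each omitted 1 array. Jam3, its relative and binding partner, read 9.54, 9.60 and 9.52 in control arrays and 9.49, 8.72 and 8.88 in L1CAM arrays. Here L1CAM replicate 1 sat just below the control arrays, and replicates 2 and 3 were clearly lower. The difference of -0.52 (SE 0.18) was not called (adjusted p = 0.0921), and without L1CAM replicate 1 it was -0.75 (adjusted p = 0.000157). F11r, the third junctional adhesion molecule (JAM-A), differed by -0.14 (95% interval -0.28 to 0.01) and Esam, an endothelial adhesion molecule of tight junctions, by -0.07 (-0.19 to 0.05), neither of them called.

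The nectins are calcium-independent adhesion molecules of adherens junctions. Nectin2 read 9.78, 9.83 and 9.90 in control cells and 9.09, 9.35 and 9.27 in L1CAM cells, with L1CAM replicate 1 the lowest of all arrays. It was 1.52-fold lower (difference -0.60, SE 0.08, adjusted p = 0.00335). Nectin3 read 7.88, 8.18 and 8.08 against 7.54, 7.74 and 7.73, and fell by 0.38 (SE 0.09, adjusted p = 0.0333). Afdn encodes afadin, which links nectins to actin, and moved the other way. It read 10.92, 10.93 and 10.96 in control arrays and 11.08, 11.38 and 11.32 in L1CAM arrays, a rise of 0.32 (SE 0.08, adjusted p = 0.0386). The calls of Nectin3 and Afdn rested on few arrays: Nectin3 was not called without control replicate 2 or 3 or L1CAM replicate 2 or 3 (adjusted p up to 0.121) or after renewed quantile normalization (-0.30, adjusted p = 0.102), nor Afdn without any array other than L1CAM replicate 1 (adjusted p up to 0.133). The start region of Nectin2 (GRCm38.p6, chr7:19749524-19749823, minus strand) is shown because it was the called fall of this group with a RefSeq entry and a stable call, with capitals as above.
Nectin2: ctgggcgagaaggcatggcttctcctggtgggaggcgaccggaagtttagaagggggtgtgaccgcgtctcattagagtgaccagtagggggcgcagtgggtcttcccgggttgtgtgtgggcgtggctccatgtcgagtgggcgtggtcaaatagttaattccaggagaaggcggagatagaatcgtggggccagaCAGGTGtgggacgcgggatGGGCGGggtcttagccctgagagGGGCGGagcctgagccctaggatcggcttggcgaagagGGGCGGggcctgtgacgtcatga
It held a CAGGTG match at -53 and GC boxes at -34, -11 and 27.

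**Figure D2:**
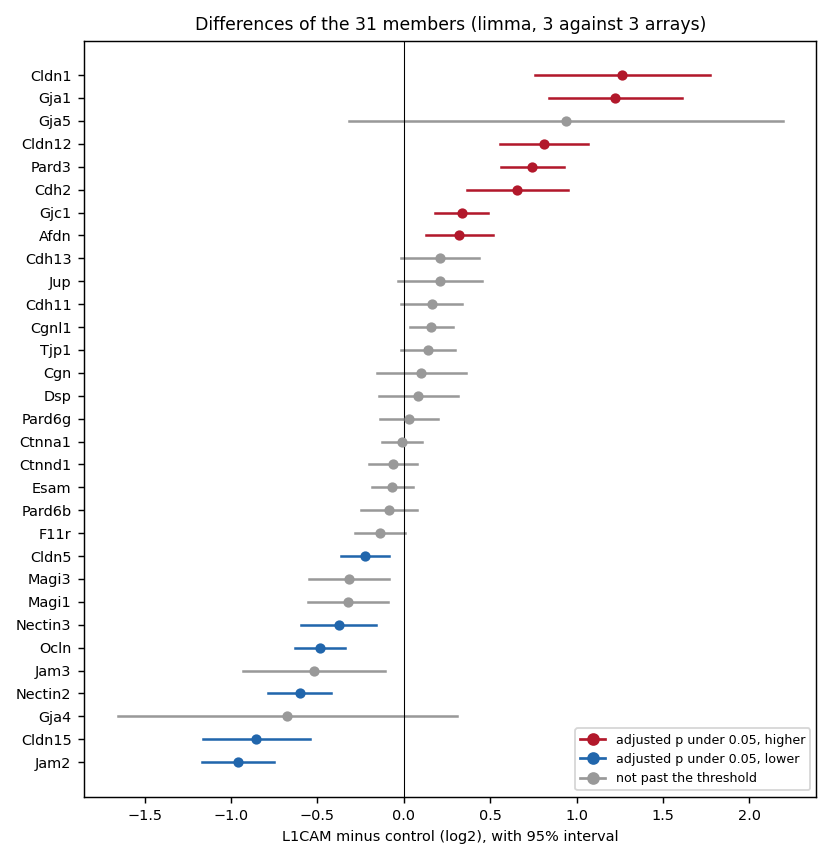
Difference of each of the 31 genes, L1CAM minus control on the log2 scale, with its unadjusted 95% interval from limma; colours mark the adjusted call. The intervals of Gja5 (-0.32 to 2.20) and Gja4 (-1.66 to 0.31) are the widest.

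Among connexins the L1CAM arrays differed from one another as well as from the controls. Gja1, connexin-43, rose and Gjc1, connexin-45, rose less, while the arterial connexins Gja4 (connexin-37) and Gja5 (connexin-40) were not called. Gja1 read 9.89, 9.71 and 9.83 in control arrays and 10.61, 11.21 and 11.28 in L1CAM arrays. All L1CAM arrays were above all control arrays, with replicate 1 the lowest of its group. The rise was 2.33-fold (difference 1.22, SE 0.17, adjusted p = 0.00397), and Gja1 was called in all 6 fits that omitted 1 array, with an adjusted p of at most 0.0272. Gjc1 read 8.55, 8.37 and 8.47 against 8.81, 8.85 and 8.74, and rose by 0.34 (SE 0.07, adjusted p = 0.0161). That call was lost without control replicate 2, control replicate 3 or L1CAM replicate 2 (adjusted p up to 0.0686).

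Gja5 read 6.25, 6.70 and 6.68 in control arrays and 8.94, 6.90 and 6.61 in L1CAM arrays. L1CAM replicate 1 thus lay 2.39 above the control mean, whereas replicates 2 and 3 lay 0.36 and 0.07 above it. Control replicate 1 read below its array median and the other control arrays only just above theirs, so the sizes given for Gja5 are not exact. The difference of 0.94 (SE 0.54) was not called (adjusted p = 0.307), and without L1CAM replicate 1 it was 0.21 (adjusted p = 0.348). Among all 19938 genes, 0 had a larger SD over the L1CAM arrays than Gja5 (1.27, against 0.25 over the control arrays).

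Gja4 split the same arrays in another way. It read 8.33, 8.73 and 8.57 in control arrays, 9.01 in L1CAM replicate 1, and 7.37 and 7.23 in L1CAM replicates 2 and 3. Replicate 1 was the highest of all arrays and the other L1CAM arrays were the lowest. The difference of -0.67 (SE 0.42) was not called (adjusted p = 0.353). Without L1CAM replicate 1 it was -1.24 (adjusted p = 0.000147). Its SD over the L1CAM arrays, 0.99, was exceeded by 10 genes (0.0502% of those tested).

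**Figure D3:**
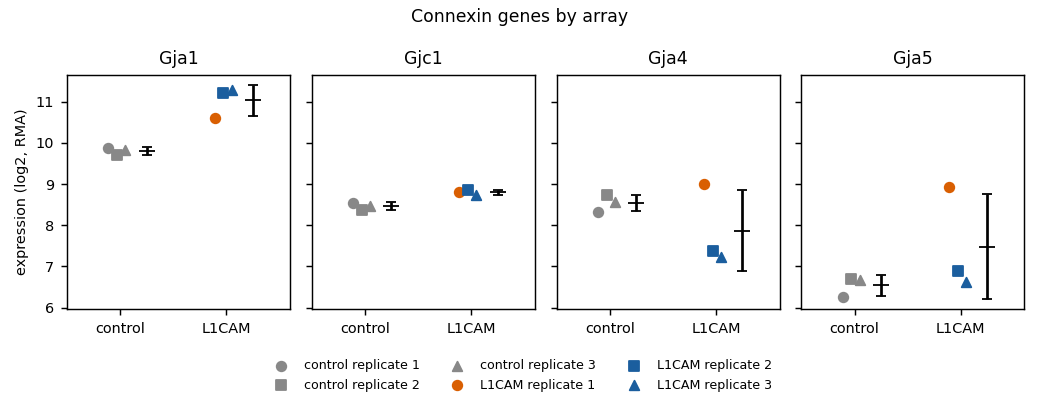
Log2 expression of the 4 connexin genes on each array, with the mean and SD of each group of 3 beside the points. Gja1 and Gjc1 separate the groups, while L1CAM replicate 1 reads 9.01 for Gja4 and 8.94 for Gja5, above all other arrays.

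The start regions of these connexin genes are shown because their behaviour differed most (GRCm38.p6): Gja1 at chr10:56377050-56377349 (plus strand), Gja4 at chr4:127313990-127314289 (minus strand) and Gja5 at chr3:97032152-97032451 (plus strand).
Gja1: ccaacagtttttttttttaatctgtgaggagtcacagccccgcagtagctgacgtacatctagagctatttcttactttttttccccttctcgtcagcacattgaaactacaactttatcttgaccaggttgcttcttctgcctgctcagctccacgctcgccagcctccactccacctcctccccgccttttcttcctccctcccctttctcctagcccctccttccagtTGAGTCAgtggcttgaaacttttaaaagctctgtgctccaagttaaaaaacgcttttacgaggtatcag
Gja4: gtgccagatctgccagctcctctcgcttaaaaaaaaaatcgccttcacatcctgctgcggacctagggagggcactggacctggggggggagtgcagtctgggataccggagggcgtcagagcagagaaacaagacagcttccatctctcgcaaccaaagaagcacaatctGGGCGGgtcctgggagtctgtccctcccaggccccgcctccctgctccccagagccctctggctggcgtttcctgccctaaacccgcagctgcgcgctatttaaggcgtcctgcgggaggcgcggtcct
Gja5: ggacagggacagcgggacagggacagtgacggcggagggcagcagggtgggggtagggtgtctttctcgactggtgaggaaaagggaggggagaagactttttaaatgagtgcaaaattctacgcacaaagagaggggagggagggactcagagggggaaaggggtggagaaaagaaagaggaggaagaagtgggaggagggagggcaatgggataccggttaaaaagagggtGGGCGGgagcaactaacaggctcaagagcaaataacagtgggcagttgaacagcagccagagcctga
The Gja1 window held an AP-1 match at -19 and none of the other motifs searched. The Gja4 window held a GC box at -79 and the Gja5 window a GC box at -17.

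Pard3, the scaffold of the PAR polarity complex that is recruited by junctional adhesion molecules and nectins, read 7.95, 7.98 and 8.08 in control arrays and 8.59, 8.82 and 8.82 in L1CAM arrays. The arrays of each group lay close together and the groups were well apart. The rise was 1.67-fold (difference 0.74, SE 0.08, adjusted p = 0.00156), and Pard3 was among the 3 of the 31 genes still called by an ordinary linear model without moderation, with Jam2 and Ocln. Its partners Pard6b and Pard6g, adaptors for atypical protein kinase C, differed by -0.08 (95% interval -0.25 to 0.08) and 0.03 (-0.14 to 0.20) and were not called. Pard6b read 6.63 to 6.88, just above the array medians. Pard6g lay below the array median on all 6 arrays, and its difference changed sign without control replicate 1 (-0.02) or L1CAM replicate 3 (-0.02).

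Cdh2, N-cadherin, was the cadherin that passed. It read 8.91, 8.60 and 8.50 in control cells and 9.12, 9.45 and 9.41 in L1CAM cells, a rise of 1.58-fold (difference 0.66, SE 0.13, adjusted p = 0.0145). The groups did not overlap, though control replicate 1, the highest control, lay not far below L1CAM replicate 1. The call was lost without control replicate 2 or 3 or L1CAM replicate 2 or 3 (adjusted p up to 0.0700). Cdh13, T-cadherin, which is anchored by a lipid and has no cytoplasmic tail, differed by 0.21 (95% interval -0.02 to 0.44) and Cdh11, a cadherin of mesenchymal cells, by 0.16 (-0.01 to 0.34). Neither was called, and Cdh11 lay below the array median on all arrays.

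The 4 catenins and plaque proteins had a median absolute difference of 0.07, against 0.10 for all genes. None of the 4 was called by limma, against 15.0% of all genes. Of the 4, 0 had an unadjusted p under 0.05, against 29.0% of all genes. With 4 genes, these shares do not set the group apart from all genes. Ctnna1, alpha-catenin, which joins cadherins to actin, read between 11.20 and 11.24 on all 6 arrays. Its difference of -0.01 had a 95% interval of -0.12 to 0.11 and changed sign when array medians were set to 0 (0.02) or control replicate 1 was left out. Ctnnd1, p120-catenin, which keeps cadherins at the surface, differed by -0.06 (-0.20 to 0.08). Jup, plakoglobin, differed by 0.21 (-0.03 to 0.45) with overlapping groups, and Dsp, desmoplakin, by 0.08 (-0.15 to 0.31) at readings below the array medians.

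In 9 of the 13 called genes (69.2%) L1CAM replicate 1 was the L1CAM array nearest the controls, close to the 71.2% of all 2999 called genes. Nectin2 and Nectin3 went the other way, with replicate 1 the farthest. Without this array, 8 of the 31 genes were called higher and 9 lower, where 12.0% and 12.9% of all genes were (24.8% together). Markers of dividing cells moved with the same split: the mean of 17 of them lay at -0.50 from the control mean in L1CAM replicate 1, and at -1.78 and -1.67 in replicates 2 and 3. All 17 were called lower with the 6 arrays and without L1CAM replicate 1. Leaving out control replicate 1 left 3 of them called, and leaving out any of the other 4 arrays left 0 called by limma, with all 17 at an unadjusted p under 0.05 in each of these fits. Their part in the values of Gja4, Jam3 or any other junction gene was not tested.

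**Figure D4:**
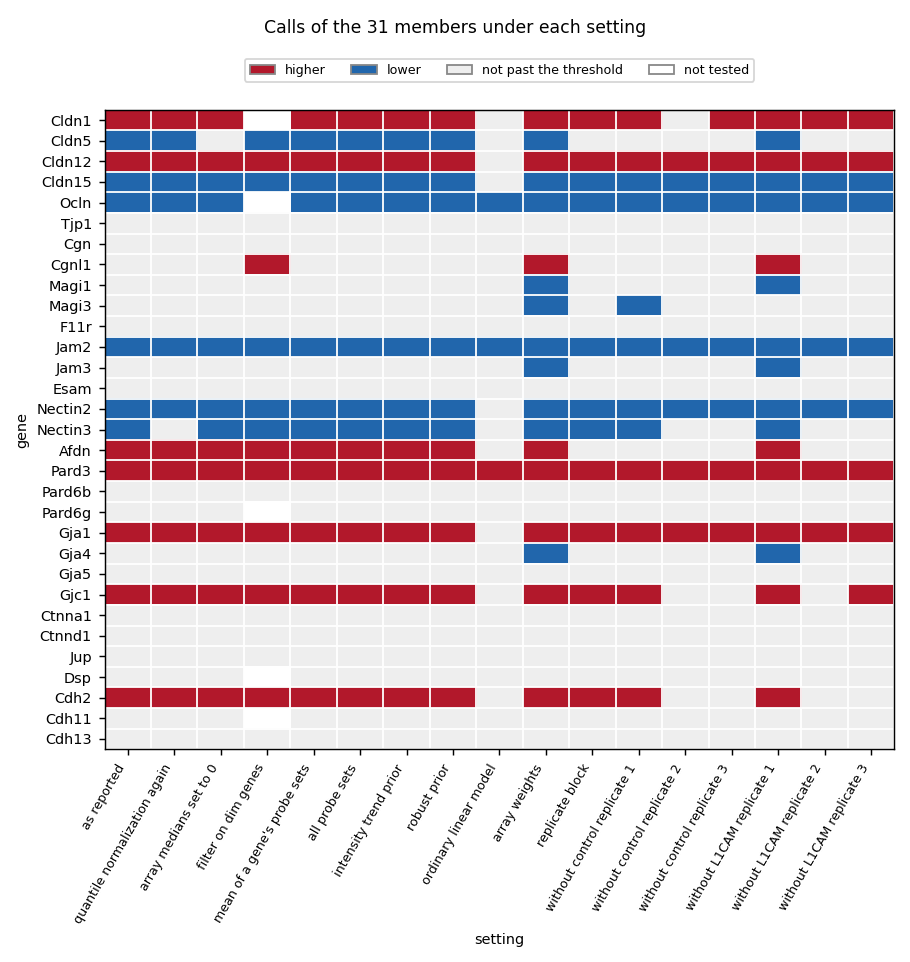
Call of each of the 31 genes (rows) at an adjusted p under 0.05 under each setting (columns), with red for higher, blue for lower, grey for not past the threshold and white for not tested. Jam2 and Pard3 were called under every setting shown, and Ocln under every setting in which it was tested.

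Beyond these genes, 169 others of the same structures were measured from lists of 182. Of them, 7 rose and 13 fell (11.8% called, against 15.0% of all genes), with a median difference of 0.01. In the adherens list 1 of 37 rose and 4 fell (13.5% called, near the 15.0% of all genes). The largest fall was that of Ctnnal1, an alpha-catenin relative: it read 10.26, 10.43 and 10.32 in control cells and 8.96, 9.06 and 8.90 in L1CAM cells, 2.57-fold lower (adjusted p = 0.000123). Shroom2, which organises actin and myosin at junctions, read 8.56, 8.78 and 8.71 against 7.74, 7.31 and 7.31, and was 2.34-fold lower (adjusted p = 0.00125). Pvr, a nectin-like molecule that binds Nectin3, read 10.72, 10.48 and 10.62 against 11.11, 11.68 and 11.63, and rose 1.83-fold (adjusted p = 0.00996). Vcl, vinculin, fell by 0.28 and Ptprj, a receptor tyrosine phosphatase, by 0.31. VE-cadherin, Cdh5, differed by -0.08 (95% interval -0.19 to 0.04), Ctnnb1, beta-catenin, by -0.05 (-0.18 to 0.08) and Pecam1 by -0.07 (-0.19 to 0.05), and none of them was called. Cdh1, E-cadherin, lay below the array medians in all 6 arrays.

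In the polarity list 4 of 40 genes rose and 3 fell (17.5% called, near the 15.0% of all genes). The planar polarity genes Prickle2 and Vangl2 fell by 1.31 (SE 0.29, adjusted p = 0.0226) and 0.82 (SE 0.11, adjusted p = 0.00366), whereas Prickle1 rose by 0.38. Prickle2 read 8.84 in L1CAM replicate 1 and 7.68 and 7.65 in replicates 2 and 3, and its call was kept only when L1CAM replicate 1 was the array left out. Dlg4, a membrane-associated scaffold, fell by 0.52, and its relative Dlg2 rose by 0.46 at readings below the array medians. Pard6a, the remaining PAR6 gene, rose by 0.32 and Rap1b, a small GTPase that strengthens endothelial junctions, by 0.26. In the tight junction list 1 of 35 rose and 4 fell (14.3% called, near the 15.0% of all genes). The rise was Amotl2 (0.32). The falls were Amot (-0.55), Clmp (-0.36, at readings below the array medians), Rab13 (-0.34) and Amotl1 (-0.25). Thus the 3 angiomotin genes, scaffolds that bind YAP, did not move together. Pkp2, plakophilin-2 of desmosomes, read 8.78, 8.73 and 8.74 against 7.84, 8.09 and 8.14, and fell by 0.73 (adjusted p = 0.00215). It was the only call among 13 desmosome genes (7.69%, against 15.0% of all genes). Among 29 further cadherins Cdh18 rose by 0.60, with control replicates 1 and 2 below their array medians so that the size is not exact, and Fat4, a giant atypical cadherin, fell by 0.69. The remaining 15 connexins and pannexins gave 0 calls in limma, with 3 at an unadjusted p under 0.05 (20.0%, against 29.0% of all genes). In 5 of them the groups did not overlap (33.3%, against 34.6% of all genes). Of these 15 genes, 4 exceeded their array's median in 3 or more arrays. So did 3 of the 13 desmosome genes and 9 of the 29 further cadherins. The other genes of these lists were not shown to be above background, so few calls among them do not show a lack of change.

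**Figure D5:**
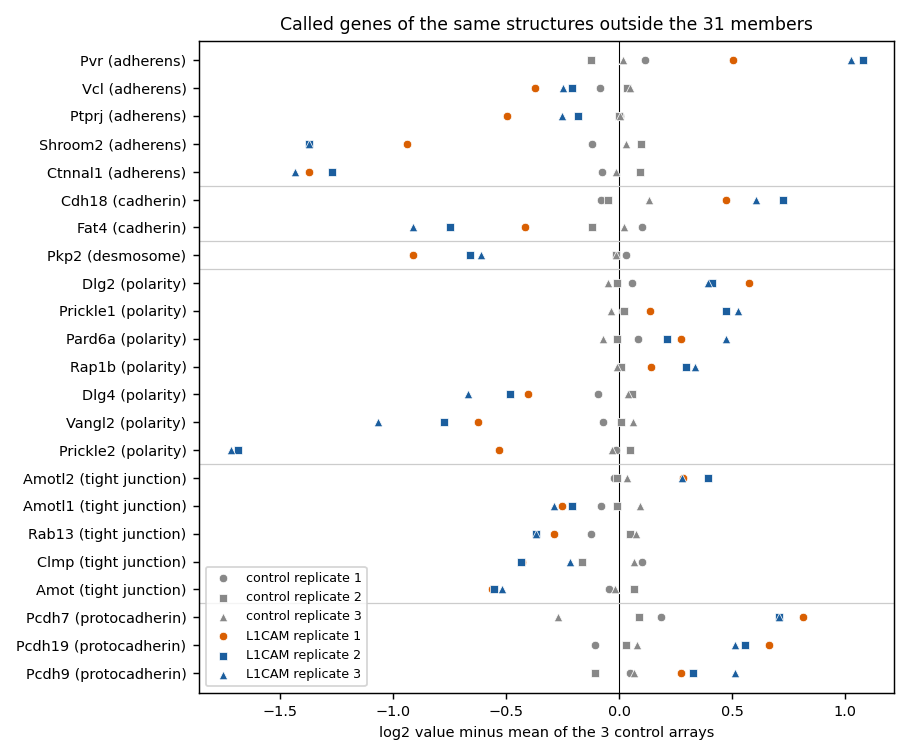
Log2 value on each array, minus the mean of the 3 control arrays, of the 20 called genes of the other lists and of 3 called protocadherins. Ctnnal1 and Amot differ by similar amounts on the 3 L1CAM arrays, while Prickle2 lies at -0.53 on L1CAM replicate 1 and at -1.69 and -1.72 on the others.

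Without L1CAM replicate 1, 15 of the 169 other genes were called higher (8.88%, against 12.0% of all genes) and 17 lower (10.1%, against 12.9%). Of the 23 called genes named from these lists, protocadherins included, 10 were called in all 6 fits that omitted 1 array: Amot, Ctnnal1, Shroom2, Dlg2, Dlg4, Vangl2, Pkp2, Cdh18, Pcdh7 and Pcdh19. The others lost the call in at least 1 of these fits, with adjusted p-values of up to 0.145.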

How the data were processed

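Total RNA of 6 cultures, 3 per group, was hybridised to Affymetrix arrays. The deposited values are log2 expression per probe set, made by the authors with RMA, a background correction, quantile normalization and probe summary. Per the submitters' processing notes, both RMA and its software, Expression Console 1.1, were used. Neither the RMA settings nor the genome build is stated in the sources used here. No detection calls were used, so a reading below the array median was not taken as above background. The number of arrays limits the precision.

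Of 35512 probe sets, 21789 had 1 gene symbol in the platform annotation, 1621 several and 12102 none listed. Where a gene had several, the brightest on average was kept, for 19938 genes; 3 further probe sets that list Cdh11 with other genes were not used. Group differences were fitted with lmFit and eBayes of limma 3.58.1 (R 4.3.3), with two-sided tests, with Benjamini-Hochberg adjustment over all genes and a threshold of 0.05. Figures used Python 3.11.15 and matplotlib 3.10.9. The fit was tested on simulated data. The members and the gene lists were chosen with earlier results of these data known. Named genes are all members, up to 4 called genes per direction with separate groups from each further list, and Cdh5, Ctnnb1, Vcl, Pecam1, Cdh1 and L1cam. The alternatives were 2 scalings, a filter on dim genes, 2 probe set rules, 2 variance priors and an ordinary linear model without a prior. Array weights, a replicate block and leaving out each array were the others. The labels do not say whether same-numbered cultures were paired. Deviations from the group means of same-numbered arrays correlated at -0.10, -0.10 and -0.03. With 3 arrays per group these values cannot settle whether there was a pairing. Promoter sequences are RefSeq's.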

Additional observations from a re-analysis of the deposited data

How the results depend on the processing

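Members called higher numbered 7 as reported, 1 with an ordinary linear model and 3 to 8 when 1 array was left out, the 3 being without control replicate 2 and the 8 without L1CAM replicate 1. Those called lower numbered 6 as reported, 2 with an ordinary linear model, 10 with array weights and 4 to 9 when 1 array was left out, the 9 again without L1CAM replicate 1. The other junction genes called higher numbered 7 as reported, 0 with an ordinary linear model (20 at an unadjusted p under 0.05), 14 with array weights, 4 with the replicate block and 2 to 15 with 1 array left out. Those called lower numbered 13, 2 with an ordinary linear model and 6 to 17 with 1 array left out. Over all genes the share called was 2.91% with the ordinary linear model, 26.0% with array weights, 30.0% with the filter on dim genes and 10.4% with the block, against 15.0% as reported. With the replicate number as a block in limma, 6 members were called higher and 5 lower. Afdn (adjusted p = 0.0563) and Cldn5 (adjusted p = 0.0869) lost their calls in that limma fit. Whether the numbers pair the cultures was not settled. Signs changed in uncalled genes. Pard6g ran from -0.022 to 0.078 and Dsp from -0.012 to 0.16 when 1 array was left out. Ctnna1 ran from -0.020 to 0.0041 when 1 array was left out and was 0.021 with array medians set to 0. Cdh1 ran from -0.096 to 0.087 when 1 array was left out and was 0.029 with array medians set to 0 and 0.038 with array weights. The cause of these changes was not tested. Over all members and alternatives, 439 values kept their sign and side of the threshold, 36 lost the call, 11 gained it and 5 changed sign. Readings below the array medians limit the sizes given for Cldn1, Ocln, Dsp, Pard6g and Cdh11, and for Gja5 a control reading below its array median does the same. Sizes for Cldn5, Cgn and Pard6b are limited by readings not far above the array medians.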

Other observations

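Protocadherins, cadherin relatives known mainly from neurons, were read beside the junction genes. Of 12 genes outside the clustered families, 3 rose and 0 fell (against 6.85% of all genes called higher and 8.19% lower), with a median difference of 0.14. Pcdh7 read 5.35, 5.25 and 4.89 in control arrays and 5.98, 5.87 and 5.87 in L1CAM arrays, a difference of 0.74 (SE 0.11, limma adjusted p = 0.00668). Pcdh19 read 5.53, 5.67 and 5.72 against 6.30, 6.20 and 6.15 (difference 0.58, adjusted p = 0.00291) and Pcdh9 differed by 0.37 (adjusted p = 0.0233). The groups did not overlap for any of these 3, and Pcdh7 and Pcdh19 were also called in all 6 fits that omitted 1 array. All readings of the 3 genes lay below the array medians, so they were not shown to be above background and the folds are not exact.

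The genes with the largest SD over the L1CAM arrays, named after their values were seen, began with Gja5 (1.27), the interleukin Il6 (1.17) and Rgs2 (1.17), a regulator of G protein signalling. Il6 read 4.75 in L1CAM replicate 1 and 6.55 and 6.95 in replicates 2 and 3, against 5.79, 5.19 and 5.23 in control arrays. It therefore had its low reading on the array where Gja5 was high. Rgs2 read 10.40 in L1CAM replicate 1 and 8.40 and 8.37 in the others, the same side as Gja4. Tcf19, Neil3, Esco2, Depdc1a, Fbxo5 and Pclaf, genes of DNA replication, repair or cell division, came next, followed by Nrep (0.994). Gja4 (0.988) was the only other gene of the 31 among the 11 largest. Esco2, Depdc1a, Fbxo5 and Pclaf were called lower by limma (adjusted p = 0.0355, 0.0485, 0.04997 and 0.0415), while Tcf19, Neil3, Nrep and Gja4 were not called. Neither Gja5, Il6 nor Rgs2 was called between the groups (adjusted p = 0.307, 0.441 and 0.163).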
